A study of Mus musculus with 8 samples.

Results

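The genes described are 10 markers of hippocampal interneurons: Gad1, Gad2 and Slc32a1, which make and package GABA, and Sst, Vip, Npy, Cck, Pvalb, Calb2 and Reln, which mark interneuron classes. They were chosen by name, as the probes whose RefSeq accession belongs to one of these genes, and all 10 were among the 24025 features tested. They were represented by 12 probes, and every one of these was well above background on all 8 arrays. Hippocampal total RNA of 3-month-old mice on the C57BL6/J strain was labelled with Cy3 and hybridised to 8 one-colour arrays, of which 4 held Ts1Cje mice and 4 disomic wild-type littermates. Ts1Cje is a model of Down syndrome that carries an extra copy of distal chromosome 16, with Sod1 disrupted on it, and lacks the distal end of 1 chromosome 12. None of the 10 genes lies in either segment by gene order in the reference table. Sst is on chromosome 16, on the centromere side of the triplicated segment.

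Interneurons are the inhibitory neurons of the hippocampus. They make GABA from glutamate with the glutamate decarboxylases that Gad1 and Gad2 encode, and Slc32a1 encodes the vesicular transporter that loads GABA into synaptic vesicles. The class markers divide these cells: parvalbumin marks fast-spiking basket and axo-axonic cells, somatostatin marks cells that contact distal dendrites, often together with neuropeptide Y, and vasoactive intestinal peptide and calretinin (Calb2) mark many cells that contact other interneurons. Several markers are not restricted to interneurons, since cholecystokinin mRNA is also made by glutamatergic cells, calretinin by mossy cells of the mouse hilus and reelin by Cajal-Retzius cells. In whole hippocampus, fewer cells of a type and less RNA per cell cannot be told apart. Every value below is the log2 signal of a probe minus its array's 75th percentile, and a level of one gene cannot be set against that of another, because each probe has its own response.

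Some of these genes, Sst above all, are classical targets of cAMP signalling, and the stretches shown here are the 100 bases before the annotated start of the 4 members whose promoter window holds the cAMP response element or its half-site. The window reached from 250 bases before to 50 after the start (RefSeq, GRCm38.p6), and 9 of the 10 genes had one, Pvalb with 2 windows. TGACGTCA, the full element, reads the same on both strands, and the half-site was searched as TGACG or CGTCA, so that each full element also counts as a half-site. Capitals mark the element or half-site, and all sequences run 5′ to 3′ on the gene's strand.
Sst, chr16:23890845-23890944, minus strand: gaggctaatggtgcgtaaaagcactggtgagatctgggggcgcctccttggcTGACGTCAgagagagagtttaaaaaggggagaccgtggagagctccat
Vip, chr10:5639118-5639217, plus strand: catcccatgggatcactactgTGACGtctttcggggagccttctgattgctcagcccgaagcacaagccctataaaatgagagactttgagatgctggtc
Cck, chr9:121495695-121495794, minus strand: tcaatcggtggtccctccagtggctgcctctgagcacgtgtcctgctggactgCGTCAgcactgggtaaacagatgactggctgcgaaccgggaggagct
Gad2, chr2:22622227-22622326, plus strand: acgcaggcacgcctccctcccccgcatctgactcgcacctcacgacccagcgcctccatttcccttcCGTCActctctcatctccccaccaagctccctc
The full element was found in 1 of the 10 member windows, that of Sst, and in 1.79% of all 32851 windows in the table. The half-site was found in 4 member windows and in 20.8% of all windows. The windows of Gad1, Slc32a1, Npy, Pvalb and Reln held neither. These matches describe the sequence alone.

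The question was whether transcripts of hippocampal interneurons differ between Ts1Cje and wild-type mice. No member passed the threshold for all 24025 features (limma, Benjamini-Hochberg adjusted p under 0.05), a mark that 47 features, 0.196% of those tested, did pass. That count fell to 4 when the fourth Ts1Cje array was left out, to 17 and 25 when the second or the third was, and to 24 when the second or the fourth wild-type array was. No member had an unadjusted limma p under 0.05 either, against 8.73% of all features, and for none were the arrays of the groups apart without overlap, against 6.12% of all features. The median difference over the 10 genes, Ts1Cje minus wild-type, was -0.02 on the log2 scale beside -0.0072 over all features, with 4 genes above 0 and 6 below. On their brightest probes, the 3 genes of GABA synthesis and vesicular loading had values above 0, and 6 of the 7 class markers had values below 0. Of all features, 47.3% had values above 0. The other probe of Slc32a1 gave -0.11. The small values of Pvalb (-0.03) and Reln (-0.02) changed sign in 1 and 5 of the alternative settings described below. This split was not tested. The differences of the 10 genes lay between -0.18 for Calb2 and 0.10 for Vip.

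**Figure D1:**
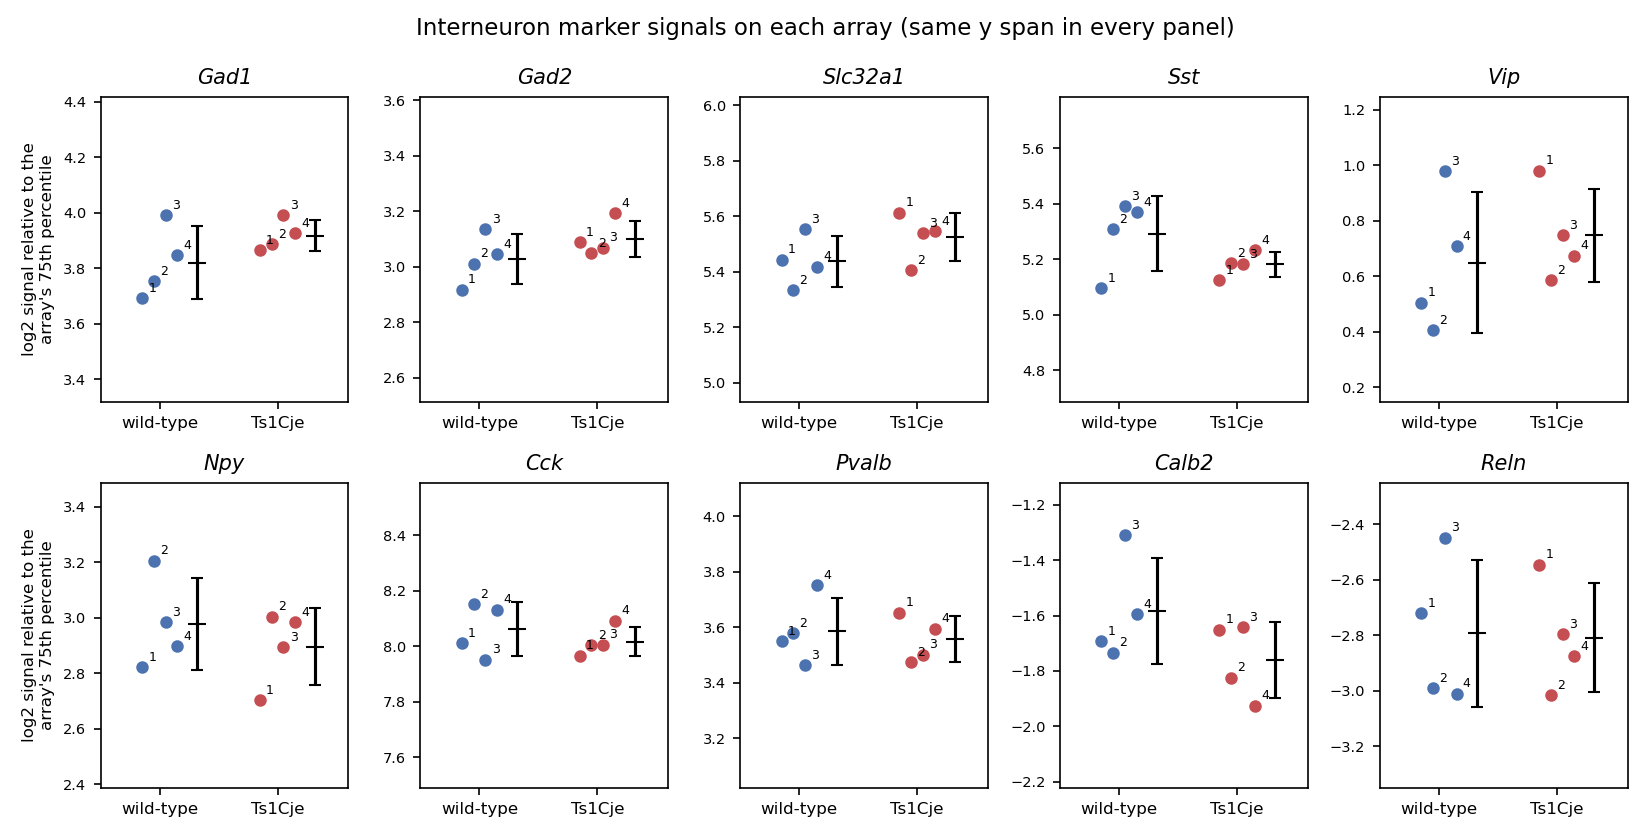
Signal of each interneuron marker on each array, as log2 minus the array's 75th percentile, with blue points for the 4 wild-type and red points for the 4 Ts1Cje arrays, the replicate number beside each point and a bar for the mean ± SD. The groups overlap for all 10 genes, and all panels span the same height in log2 units.

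Gad1 encodes GAD67, the decarboxylase that supplies most GABA in the brain. Its signal on wild-type arrays 1 to 4 was 3.69, 3.75, 3.99 and 3.85, and on Ts1Cje arrays 1 to 4 it was 3.86, 3.89, 3.99 and 3.93. The groups overlapped, because wild-type replicate 3 stood level with the highest Ts1Cje array. The difference was 0.10 (SE 0.07, 95% interval -0.07 to 0.26; limma adjusted p = 0.70; two-sided exact permutation p = 0.20). Gad2 encodes GAD65, the form bound to synaptic vesicles. It stood at 2.92, 3.01, 3.14 and 3.05 in wild type and at 3.09, 3.05, 3.07 and 3.20 in Ts1Cje. The lowest array was wild-type replicate 1 and the highest Ts1Cje replicate 4, with the others mixed between them. The difference was 0.07 (SE 0.06, limma adjusted p = 0.74; exact permutation p = 0.26).

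For Slc32a1, the vesicular GABA transporter, the brighter of both probes gave 5.44, 5.33, 5.55 and 5.42 in wild type and 5.61, 5.41, 5.54 and 5.55 in Ts1Cje. Ts1Cje replicate 2 lay among the wild-type arrays and wild-type replicate 3 among the Ts1Cje arrays. The difference was 0.09 (SE 0.07, limma adjusted p = 0.71; exact permutation p = 0.29). The probes of Slc32a1 disagreed in direction: the dimmer probe gave -0.11 (SE 0.10), with wild-type replicate 3 at -0.91 and the other 7 arrays between -1.38 and -1.24. Neither probe separated the groups, and the mean over both gave -0.01. The 95% intervals of Gad1, Gad2 and Slc32a1 on the brighter probes reached up to 1.20-fold, 1.16-fold and 1.18-fold and down to 0.95-fold, 0.95-fold and 0.96-fold.

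Among the peptide genes, Sst had the most negative difference. Somatostatin is the peptide of dendrite-targeting interneurons of stratum oriens and the hilus. Its probe gave 5.10, 5.31, 5.39 and 5.37 in wild type and 5.12, 5.18, 5.18 and 5.23 in Ts1Cje. Of the wild-type arrays, 3 lay above all 4 Ts1Cje arrays, and wild-type replicate 1 lay below all of them. The difference was -0.11 (SE 0.07, 95% interval -0.28 to 0.05; limma adjusted p = 0.67; exact permutation p = 0.20). Without wild-type replicate 1 the value was -0.18 (limma adjusted p = 0.46).

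Neuropeptide Y, which overlaps with somatostatin in many hippocampal interneurons, stood at 2.82, 3.21, 2.99 and 2.90 in wild type and at 2.70, 3.00, 2.89 and 2.99 in Ts1Cje. Wild-type replicate 2 was the highest and Ts1Cje replicate 1 the lowest array. The difference of Npy was -0.08 (SE 0.10, limma adjusted p = 0.82; exact permutation p = 0.46). Without wild-type replicate 2 it was -0.0049, the value nearest 0 among the fits with 1 array left out. Vip, the peptide of interneuron-selective cells, was at 0.51, 0.41, 0.98 and 0.71 in wild type and at 0.98, 0.59, 0.75 and 0.67 in Ts1Cje. Its wild-type arrays held both the lowest value and one level with the highest. The difference was 0.10 (SE 0.14, 95% interval -0.22 to 0.41; limma adjusted p = 0.84; exact permutation p = 0.51), and single arrays moved it. Leaving out the second wild-type array gave 0.017 and the first Ts1Cje array 0.02, the 2 values nearest 0. Leaving out the first wild-type array gave 0.05, the second Ts1Cje array 0.15 and the third wild-type array 0.21, the highest value.

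Cck, which marks a class of basket cells, gave the brightest of the member probes, at 8.01, 8.15, 7.95 and 8.13 in wild type and at 7.97, 8.00, 8.01 and 8.09 in Ts1Cje. All Ts1Cje arrays lay inside the wild-type range. The difference was -0.04 (SE 0.06, 95% interval -0.18 to 0.09; limma adjusted p = 0.84; exact permutation p = 0.43). The genes whose windows held the element or its half-site thus had differences of -0.11 (Sst), 0.10 (Vip), -0.04 (Cck) and 0.07 (Gad2), with values on both sides of 0.

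Pvalb encodes parvalbumin, the calcium buffer of fast-spiking cells, and was measured by 2 probes. The brighter gave 3.55, 3.58, 3.46 and 3.75 in wild type and 3.65, 3.47, 3.50 and 3.60 in Ts1Cje. Wild-type arrays were both the lowest and the highest. The difference was -0.03 (SE 0.07, 95% interval -0.20 to 0.14; limma adjusted p = 0.92; exact permutation p = 0.74), and the dimmer probe gave -0.04 (SE 0.07). Without wild-type replicate 4, its highest array, the sign turned and the value was 0.03.

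Calb2 encodes calretinin, another calcium-binding protein. It stood at -1.69, -1.73, -1.31 and -1.60 in wild type and at -1.65, -1.82, -1.64 and -1.92 in Ts1Cje. The groups overlapped, with wild-type replicate 3 the highest array and Ts1Cje replicate 4 the lowest. Its difference of -0.18 was the farthest from 0 among the members (SE 0.11, 95% interval -0.43 to 0.07; limma adjusted p = 0.66; exact permutation p = 0.20). Without wild-type replicate 3 it was -0.09, and between the wild-type and Ts1Cje arrays of the first slide row (replicates 1 and 2) it was -0.02 against -0.33 in the second (replicates 3 and 4). Between these rows the sign changed for Vip (0.33 against -0.13), Reln (0.07 against -0.11), Cck (-0.10 against 0.0071) and Pvalb (0.00016 against -0.059). The other members kept their sign.

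Reln encodes reelin, a secreted glycoprotein that guides neuronal layering and acts at adult synapses. Its probe was the dimmest of the members, with background-corrected signals before scaling between 66.9 and 117 intensity units. It stood at -2.72, -2.99, -2.45 and -3.01 in wild type and at -2.55, -3.02, -2.80 and -2.88 in Ts1Cje, with both groups spread over about the same range. The difference was -0.02 (SE 0.15, 95% interval -0.35 to 0.32; limma adjusted p = 0.98; exact permutation p = 0.94).

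**Figure D2:**
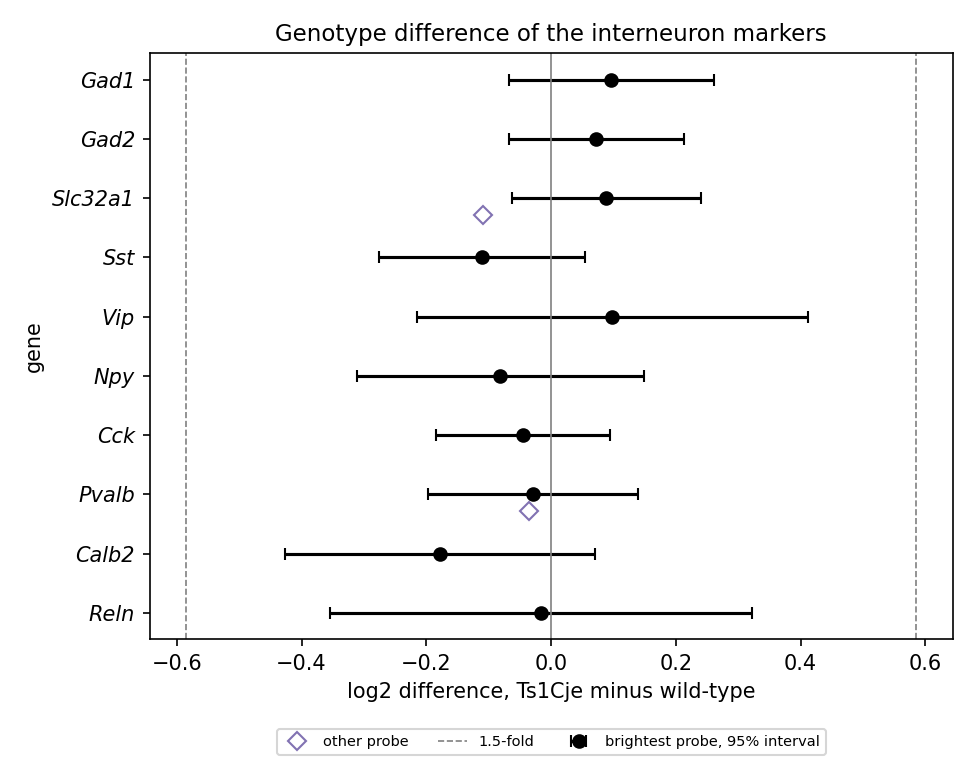
Genotype difference of each interneuron marker, Ts1Cje minus wild-type in log2 units, with the moderated 95% interval of the limma fit over 4 arrays a group; diamonds are the other probes of Slc32a1 and Pvalb. All 10 intervals hold 0 and lie inside the dashed lines at 1.5-fold.

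For the brightest probe of each gene, the intervals bound what these arrays leave possible. All 10 held 0. On the fold scale they reached down to 0.74-fold (Calb2) and up to 1.33-fold (Vip). The intervals of 5 members lay wholly within 1.2-fold in either direction, those of 8 within 1.3-fold, and all 10 within 1.4-fold. The 5 within 1.2-fold were Gad1, Gad2, Slc32a1, Pvalb and Cck. For Slc32a1 this depended on the probe, since the dimmer one gave -0.11 with a larger SE (0.10 against 0.07). The residual SD of the members between arrays of a group ranked from the 26.7th percentile of all features for Cck to the 81.3rd for Reln.

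Wild-type replicate 3 moved several members at once. On that array 8 of the 10 genes lay above their own mean over the 8 arrays, and it was the highest array for Sst, Calb2 and Reln, by 0.15, 0.36 and 0.35 above the mean. It was also near the top for Gad1, Vip and Slc32a1, whereas Pvalb and Cck were at their lowest there. Wild-type replicate 1 was the opposite case, with 1 of 10 members above its mean, Reln. The mean of Gad1, Gad2 and Slc32a1 was 4.02, 4.03, 4.23 and 4.10 on wild-type arrays 1 to 4 and 4.19, 4.11, 4.20 and 4.22 on the Ts1Cje arrays, so that all Ts1Cje arrays lay inside the wild-type range. On wild-type replicate 3 the mean over the 4 choroid plexus markers was also the highest of the 8 arrays, at -0.20 against -0.90 to -0.46 on the others. Ttr, Kl and Kcnj13 were at their highest on wild-type replicate 3, whereas Folr1 was at its lowest wild-type value there (-1.46). That array was also the highest for the mean of the astrocyte markers, at 3.08 against 2.76 to 2.98. The same held for the further interneuron genes described below (0.45 against 0.27 to 0.37). It held for the genes of GABA metabolism and transport too (3.68 against 3.44 to 3.64). The part of these genes in the member values was not tested. Without wild-type replicate 3 the differences of Gad1, Gad2 and Slc32a1 were 0.15, 0.11 and 0.13, and their lowest limma adjusted p was 0.56. With other arrays left out they were closer to 0. Without wild-type replicate 1, Gad1 was at 0.05 and Gad2 at 0.04; Gad2 was also at 0.04 without Ts1Cje replicate 4. Slc32a1 was at 0.05 without wild-type replicate 2 and at 0.06 without Ts1Cje replicate 1.

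**Figure D3:**
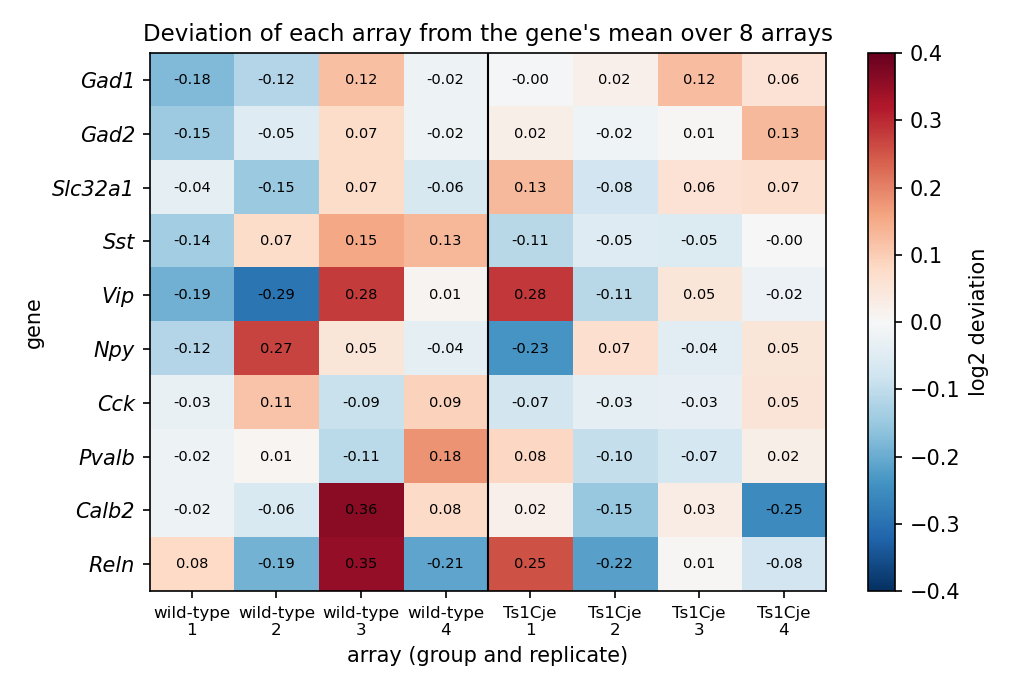
Deviation of each array from the gene's mean over the 8 arrays, in log2 units, for each interneuron marker, with wild-type arrays left and Ts1Cje arrays right of the line. Wild-type replicate 3 holds the largest positive values of Calb2 (0.36) and Reln (0.35), and no row splits by genotype.

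Across the 8 arrays the members did not vary as one group. Of the 45 pairs, 26 had a Pearson's r above 0, and the median r was 0.14, given as a description over arrays that share a slide. Slc32a1 and Vip had the highest r, 0.86, followed by Gad1 and Gad2 at 0.80 and Slc32a1 and Reln at 0.76. Cck ran against several others, with r of -0.78 to Reln, -0.66 to Slc32a1 and -0.65 to Vip. Sst and Npy, which share many cells, had an r of 0.55. The named genes outside the members whose pattern was most like the mean of Gad1, Gad2 and Slc32a1 over the 8 arrays were Extl2 (Pearson's r 0.97), 9330151L19Rik (0.97), Ahcyl2 (0.96), Sox1ot (0.96) and Scaf4 (0.96), which lies in the triplicated segment. With 8 arrays, 23 features had an r over 0.9.

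Further interneuron genes, among them the transcription factors that specify these cells and additional class markers, gave 30 tested genes of 34. None was called (limma adjusted p under 0.05), 16 were above 0 and 14 below, and the median was 0.02. Unadjusted, 3 of the 30 had a limma p under 0.05 and 2 had groups that did not overlap. Both shares were close to those of all features. Crhbp, which encodes a secreted protein that binds corticotropin-releasing hormone, was one of these 2. It stood at 0.91, 1.12, 1.31 and 1.13 in wild type and at 0.66, 0.85, 0.87 and 0.88 in Ts1Cje, so that every Ts1Cje array lay below every wild-type array. Its difference was -0.30 (SE 0.09, limma adjusted p = 0.42). Kit, a receptor tyrosine kinase, was the other, at 2.31, 2.34, 2.50 and 2.22 in wild type against 2.18, 1.99, 2.19 and 2.13 in Ts1Cje. The gap between its groups was smaller than the SD within either, and its difference was -0.22 (SE 0.07, limma adjusted p = 0.47). Htr3a, the serotonin receptor channel subunit found in Vip and other interneurons derived from the caudal ganglionic eminence, had a value of 0.29 (SE 0.09, limma adjusted p = 0.41) with groups that overlapped. Dlx6, a homeobox gene of the GABAergic lineage, had 0.28 (SE 0.12, limma adjusted p = 0.58).

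The receptors of the member peptides, the reelin receptors and the reelin adaptor Dab1 gave 14 tested genes of 15. None was called or had an unadjusted limma p under 0.05; 10 were below 0, and the median was -0.08. The 2 lowest p below 0 belonged to Npy5r (-0.44, SE 0.25, limma adjusted p = 0.64), a neuropeptide Y receptor, and the reelin receptor gene Lrp8 (-0.10, SE 0.06, limma adjusted p = 0.66). For Npy5r the wild-type arrays were spread from -1.27 to 0.04, with replicate 4 alone at the top, and covered 3 of the 4 Ts1Cje values. Above 0, the lowest p were those of the cholecystokinin receptor gene Cckbr (0.10, SE 0.08) and of Dab1 (0.05, SE 0.06). The other probe of Cckbr gave 0.20, and that of Lrp8 gave -0.06. The probes of Dab1 disagreed, the other 3 giving -0.25, -0.14 and -0.05.

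Genes of GABA metabolism and chloride transport gave 11 tested genes of 11, none called and none with an unadjusted limma p under 0.05. Of these 4 were above 0 and 7 below, with a median of -0.0084. Slc12a5, the neuronal chloride extruder KCC2, had 0.06 (SE 0.04, limma adjusted p = 0.68), and its other probe gave 0.15. Slc12a2, the chloride importer NKCC1, had -0.10 (SE 0.14, limma adjusted p = 0.84).

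**Figure D4:**
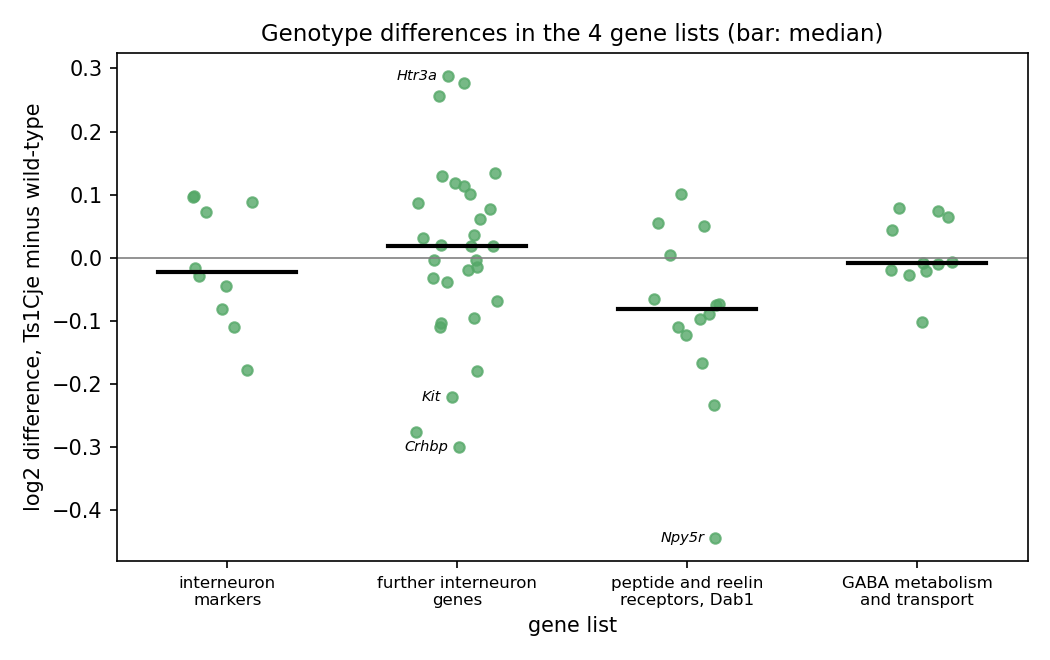
Genotype difference of every tested gene, Ts1Cje minus wild-type in log2 units, for the interneuron markers (10 genes), further interneuron genes (30), receptors of their peptides and of reelin with Dab1 (14), and GABA metabolism and transport (11); black bars are medians. The medians lie between -0.08 and 0.02, and no gene shown passed the threshold.

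Markers of 11 other cell types and brain regions were read beside these genes, and 53 of their 54 genes were tested. Of the markers of hippocampal principal neurons, 5 of 5 for dentate granule cells and 5 of 6 for pyramidal cells passed the filter on dim probes. None of the 53 was called, and the list medians lay between -0.09 and 0.11. An unadjusted limma p under 0.05 was found for 8 of them, 15.1% against 8.73% of all features, and the groups did not overlap for 4, 7.55% against 6.12%. These 4, named after their values were seen, were the dentate granule cell marker C1ql2 (-0.25, SE 0.05), the pyramidal cell markers Wfs1 (0.30, SE 0.07) and Fibcd1 (-0.19, SE 0.05), and the astrocyte marker Gja1 (-0.31, SE 0.11). Their lists had medians below 0 (-0.09 for dentate granule cells, -0.08 for pyramidal cells and -0.07 for astrocytes), and each held genes on both sides of 0. Above 0 were 2 of 5 dentate granule cell markers (Tdo2 0.15, Rfx3 0.09), 1 of 5 pyramidal cell markers (Wfs1) and 1 of 5 astrocyte markers (Aldh1l1 0.18). The part of these cell types in the member values was not tested. Markers of the striatum, whose projection neurons also make GABA, had a summed level of 11.3 to 12.6 in wild type and 10.7 to 11.7 in Ts1Cje (linear signal relative to the 75th percentile, 5 genes), and glutamatergic neuron markers of 97.3 to 108 and 94.0 to 104, so that both overlapped. Endothelial markers ranged from 34.2 to 42.3 in wild type and from 40.0 to 62.8 in Ts1Cje, and overlapped too. Among them Ly6c1 stood at 5.36 (log2) on Ts1Cje replicate 1, against 4.18 to 4.66 on the other arrays. The differences were 0.45 for Ly6c1, 0.15 for Cldn5, 0.06 for Pecam1 and -0.02 for Flt1. On each array, 59.9% to 63.1% of 55681 probes exceeded background by the scanner software's flag, and Pearson's r across features between any pair of arrays lay between 0.992 and 0.996.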

How the data were processed

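Per the file headers, the images were read with Agilent Feature Extraction 10.10.1.1, on a design of build mm9. The authors deposited linear spot intensities, corrected for background by that software and not normalized between arrays. Control spots and outlier-flagged spots were left out, and log2 signals were averaged per probe and set relative to the array's 75th percentile. Probes that exceeded background on every array of either group were kept (32596), named through RefSeq (GRCm38.p6 table, 27235 probes matched), and each gene took its brightest kept probe. Differences were tested with limma 3.58.1 (R 4.3.3) without a block, adjusted by Benjamini-Hochberg over 24025 features; the exact permutation test used all 70 assignments, and its smallest p is 0.0286. Intervals are moderated 95% intervals. All arrays shared 1 slide and 1 scan; wild-type and Ts1Cje arrays alternated by slide column, so column and genotype cannot be told apart. Each labelled replicate was taken as a separate mouse, which the sample labels do not state, so p-values measure only the spread between these samples, which may be technical. The number of arrays limits the precision.

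The named genes were the 10 members, the 2 lowest p in each direction of the 3 further lists (2 of these genes are not reported here), and the 5 genes most like the mean of Gad1, Gad2 and Slc32a1. Members and lists were chosen with earlier results of these data known. Alternatives were normexp (offset 50, on median signals, since the mean spot signal was not used here), quantile normalization, centring on the array median, changed filters and rules for probes, array weights, a trended and robust prior, replicate or slide row as a block, and each array left out. Python 3.11.15, pandas 2.3.3 and matplotlib 3.10.9 read the files and drew the plots.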

Additional observations from a re-analysis of the deposited data

How the results depend on the processing

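No interneuron marker, and no gene of the 3 further lists, was called by limma under any of the 18 alternatives, where the lowest adjusted p of a marker was 0.45 (Gad1, array weights). Of 180 values of the 10 markers under the alternatives, 173 kept their direction, but not every setting could change it. A replicate or slide-row block, the trended and robust prior and the changed filters on dim probes left all 10 differences as they were. The mean over probes could change only the genes with more than 1 probe. Slc32a1 was -0.011 with the mean over probes, and Reln was 0.016 with array weights. Leaving out each array in turn moved Reln between -0.10 and 0.10 and Pvalb between -0.070 and 0.026, and the median over the markers between -0.02 and 0.03, with a sign above 0 without wild-type replicate 3 (0.01), wild-type replicate 4 (0.0022) or Ts1Cje replicate 2 (0.03). With the array median as centre, the median over the markers was -0.07 and that over all features -0.06. A replicate block left 0 markers called and gave Calb2 -0.18 at the lowest adjusted p of the markers, 0.49, while the features called went from 47 to 1. The series description speaks of 4 pairs of littermates without saying that equal replicate numbers mark them. Same-numbered arrays had correlations of 0.24, 0.19, 0.11 and 0.05 in their deviations from the group means, so 3 of 4 exceeded 0.1, and wild-type replicates 1, 2 and 3 but not 4 correlated best with the Ts1Cje array of their number. Features called were also 84 with array weights, 71 with a trended and robust prior, 25 with the array median as centre and 23 with no filter on dim probes. With wild-type replicate 1 or 3 left out, 1 marker each had an unadjusted p under 0.05 (limma). These were Sst (-0.18) without wild-type replicate 1 and Gad1 (0.15) without wild-type replicate 3. The probe of Reln had the lowest background-corrected signals before scaling among the probes of the markers, 66.9 to 117. It was well above background on all 8 arrays.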

Other observations

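The mean over the 14 tested receptor and partner genes of the interneuron peptides and reelin lay between 0.77 and 0.82 on the wild-type arrays and between 0.70 and 0.71 on the Ts1Cje arrays (log2 relative to the 75th percentile). The groups did not overlap, which was the case for 1 of the 15 lists read here. Among single features, the groups did not overlap for 6.12%. The list means did not overlap with quantile normalization, the array median as centre or normexp either, but these scalings used the same arrays. The most negative difference in the list was that of Npy5r (-0.44), whose wild-type arrays ranged from -1.27 to 0.04. The part of this gene in the list mean was not tested. The separation of the list means was noticed after the values were seen and was not tested. No single gene of the list was called (limma), and the list's median ranged from -0.13 to -0.06 over the main setting and the 18 alternatives.

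For all 10 interneuron markers the SD between the 4 Ts1Cje arrays was smaller than that between the 4 wild-type arrays, as for Sst (0.04 against 0.14) and Cck (0.05 against 0.10), and this held for 59.7% of all features. The difference in spread was not tested. Crhbp, the lowest value among the further interneuron genes, ranged from -0.37 to -0.24 over the main setting and the alternatives (limma adjusted p 0.24 to 0.72). Kit ranged from -0.27 to -0.17 (limma adjusted p 0.35 to 0.78). Htr3a, with a value above 0, ranged from 0.24 to 0.36 (limma adjusted p 0.27 to 0.71).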
